A study of Homo sapiens with 7 samples.

Results

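Translation initiation and elongation factors were followed as a list of 48 human genes in cells treated with bafilomycin A1. Members were found by gene name, as the array spots annotated with one of the 48 symbols, a rule that uses no measured value. 47 of the 48 were found, on 132 spots that carry 78 different probes, out of 36337 gene names on the array. EIF2S3, the gamma subunit of eIF2, was not analysed here. The samples are 4 replicates of diploid HCT116 H2B-GFP, a human colon carcinoma line with a transgene for GFP-tagged histone H2B, treated with 10 nM bafilomycin A1 for 30 h in medium that the labels give as containing 10% serum. All 4 arrays share the line, the transgene, the drug and the dose, and the sources used here do not give the promoter of the transgene. The study's methods speak of independent biological replicates for its evaluated experiments in general, but the labels do not say whether these 4 were separate cultures, so the spread below may be partly technical. The 3 untreated samples of the same line were not analysed here, so no value below is a response to the drug, and the text describes the treated cells and the agreement of their arrays without a test between groups.

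Bafilomycin A1 blocks the vacuolar proton pump and with it the acidification of lysosomes and the last steps of autophagy. Lysosomes hand amino acids back to the cytosol and carry the platform on which the growth kinase mTORC1 is switched on, and mTORC1 in turn acts on the cap-binding step of translation through the 4E-binding proteins. Initiation factors bring the initiator tRNA, the small ribosomal subunit and the mRNA together and find the start codon, and elongation factors then deliver tRNAs and move the ribosome along. Most regulation of these proteins is by phosphorylation, which RNA arrays do not measure.

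Each value below is a level, meaning the log2 of the background-subtracted fluorescence of a probe minus the median of its array, with the median taken over the probes of a gene. Levels serve to compare arrays for a given gene. They depend on each probe, so no gene is ranked above another. A probe was called detected when the scanner software placed it well above background on all 4 arrays, and a gene when at least 1 of its probes was. Unless stated otherwise, levels come from detected probes, and errors are SDs over the 4 arrays. The arrays were similar in depth of signal, with 55.6% to 60.4% of spots well above background and 0 saturated spots. Replicate 3 held 2249 spots marked as outliers, against 514 to 725 on the others, and 8 of the marked spots over all arrays belonged to the 47 genes.

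All 47 genes were detected on all 4 arrays, where 52.5% of all gene names were. No complex lacked a detected subunit among those found. This held for the 4 genes of start codon selection, the eIF2 subunits EIF2S1 and EIF2S2 with the separate factor EIF2A, the 5 genes of eIF2B, the 12 of eIF3, the 10 of the eIF4 group, the 2 4E-binding proteins, EIF5B and EIF6, the 2 eIF5A genes, the 5 of eEF1, and EEF2 with its kinase. 72 of the 78 probes were detected. Probes annotated to a RefSeq transcript were detected in 69 of 71 cases (97.2%), while those annotated without one were detected in 3 of 7 (42.9%). Over the whole array the same shares were 61.9% of 31534 and 26.8% of 19065 probes.

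**Figure D1:**
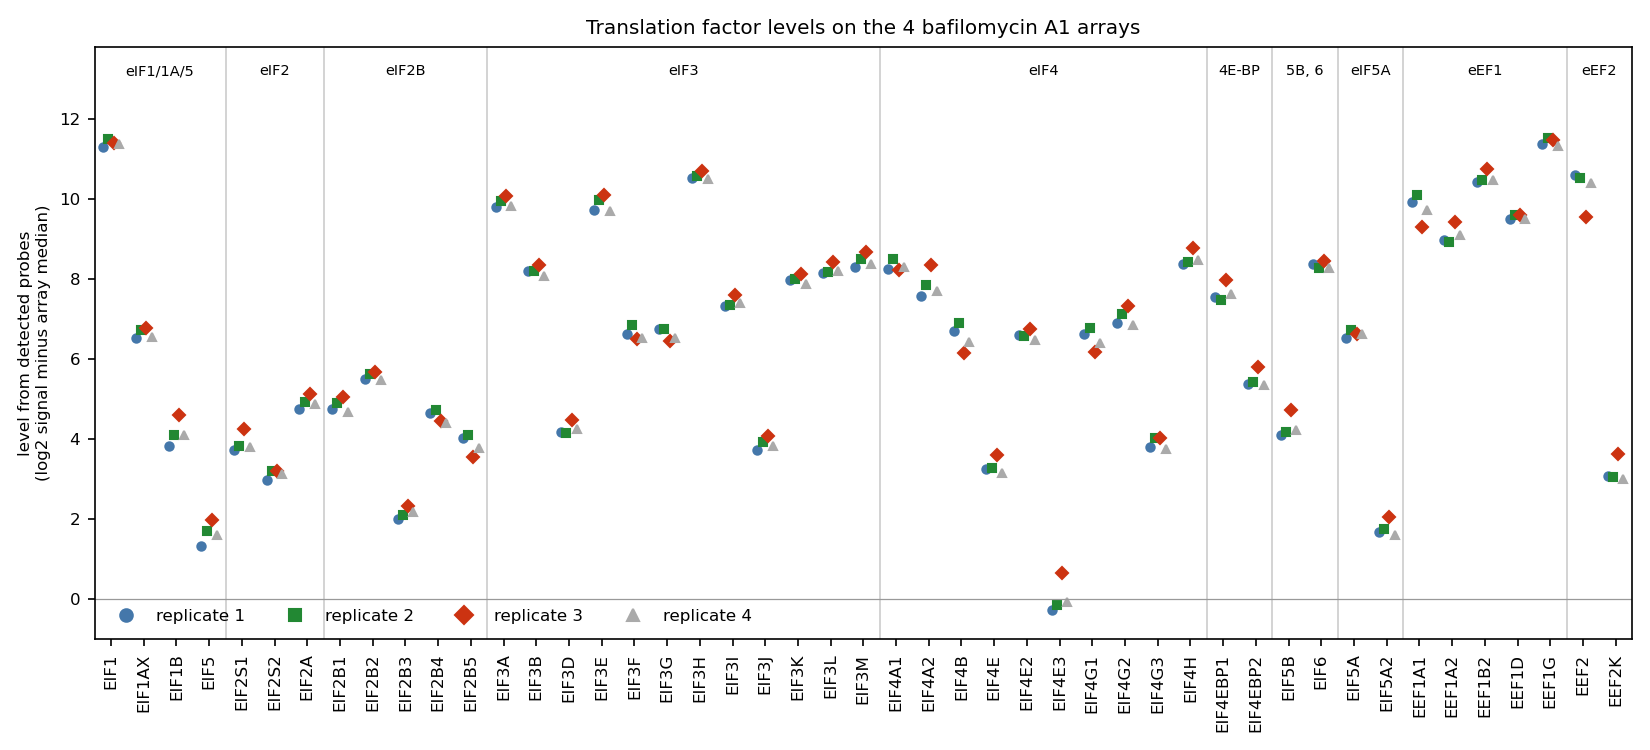
Level from detected probes (log2 signal minus array median, vertical axis) of the 47 genes, grouped by complex, with 1 point for each of the 4 bafilomycin A1 arrays. The points of a gene lie close together for most genes, and replicate 3 (diamonds) stands clear of the others for EEF2, where it is lowest at 9.54, and for EIF4E3, where it is highest at 0.64.

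The initiator side comprises the factors that find the start codon and eIF2, which carries the initiator tRNA. EIF1, which keeps the scanning ribosome open until a start codon is met, had levels of 11.31, 11.51, 11.39 and 11.37 on replicates 1 to 4 (11.39 ± 0.08). EIF1B, its close relative, measured 3.82, 4.10, 4.61 and 4.10. Replicate 3 was its highest and the span from lowest to highest array was 1.73-fold, the widest of this group. EIF5, which promotes GTP hydrolysis by eIF2, measured 1.32, 1.69, 1.98 and 1.60, a span of 1.58-fold. EIF1AX, which joins EIF1 on the small subunit, was steadier at 6.64 ± 0.13. Both EIF1B and EIF5 were lowest on replicate 1 and highest on replicate 3.

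EIF2S1 encodes the alpha subunit whose phosphorylation by the stress kinases lowers initiation. Its levels were 3.73, 3.83, 4.26 and 3.80, so that replicate 3 lay above 3 arrays that agreed to within 1.07-fold. EIF2S2, the beta subunit, varied less at 3.13 ± 0.11. EIF2A, a separate initiator tRNA-binding factor despite its name, measured 4.76, 4.92, 5.12 and 4.87 from its detected probe.

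eIF2B reloads eIF2 with GTP and is the enzyme that phosphorylated eIF2 inhibits. EIF2B1, EIF2B2 and EIF2B3 of its 5 subunits were highest on replicate 3, with 4.85 ± 0.17, 5.57 ± 0.09 and 2.15 ± 0.14. EIF2B4 and EIF2B5 were highest on replicate 2. EIF2B4 had 4.56 ± 0.15. EIF2B5, the catalytic epsilon subunit, measured 4.04, 4.10, 3.56 and 3.77, which made replicate 3 its lowest array, and its span of 1.46-fold was the only 1 of the 5 above 1.4-fold. EIF2B1, EIF2B3 and EIF2B5 were each measured by a probe printed 10 times per array. The SD among these spots within an array was 0.10 to 0.16 for EIF2B1, 0.15 to 0.20 for EIF2B3 and 0.17 to 0.24 for EIF2B5, while the SDs between arrays of the same probes were 0.17, 0.12 and 0.25. The value of an array is the mean of its spots, so the within-array SDs describe single spots and not that mean. The other probes printed 10 times were those of EIF4G2, EIF4EBP2 and EIF5B, with SDs within an array of 0.17 to 0.19, 0.21 to 0.24 and 0.185 to 0.218, and between arrays of 0.20, 0.20 and 0.28.

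eIF3 is the scaffold that holds the small subunit and the mRNA together. The median SD of its genes was 0.140, close to 0.147 in eEF1 and 0.152 in eIF2B. None of its 12 genes spanned more than 1.4-fold between arrays, beside 40.1% of all detected genes and 20.3% of the brightest 10% of them. Its subunits were EIF3A at 9.91 ± 0.13, EIF3B at 8.21 ± 0.11, EIF3D at 4.26 ± 0.15, EIF3E at 9.87 ± 0.20, EIF3F at 6.62 ± 0.17 and EIF3G at 6.62 ± 0.16. The others were EIF3H at 10.58 ± 0.10, EIF3I at 7.42 ± 0.12, EIF3J at 3.88 ± 0.15, EIF3K at 7.99 ± 0.11, EIF3L at 8.24 ± 0.12 and EIF3M at 8.47 ± 0.17. Its widest span, 1.31-fold, was shared by EIF3E and EIF3M. EIF3E measured 9.71, 9.99, 10.09 and 9.70, and EIF3M measured 8.30, 8.51, 8.69 and 8.37. In EIF3L 1 array stood apart by Dixon's ratio, which compares the gap to the nearest array with the whole range: its levels were 8.16, 8.17, 8.42 and 8.19. Replicate 3 was the highest array for 10 of the 12 genes and the lowest for EIF3F and EIF3G.

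The eIF4 group recognizes the mRNA cap and unwinds the leader, and its genes had a median SD of 0.21. 4 of its 10 genes spanned more than 1.4-fold, the same share as the 40.1% of all detected genes that did. EIF4E3, a cap-binding relative of EIF4E, measured -0.28, -0.14, 0.64 and -0.08 and had the widest span of the group at 1.89-fold. Its signals were faint, 59.8 to 109 fluorescence units. EIF4A2, a helicase, measured 7.58, 7.85, 8.36 and 7.71. EIF4B, the helicase's helper, ran the other way with 6.70, 6.89, 6.14 and 6.44, as did EIF4G1, the large scaffold, with 6.62, 6.78, 6.18 and 6.41. Replicate 3 was thus the highest array for EIF4E3 and EIF4A2 and the lowest for EIF4B and EIF4G1. The remaining genes stayed under 1.4-fold. The cap-binding proteins EIF4E and EIF4E2 measured 3.32 ± 0.20 and 6.60 ± 0.12. EIF4A1 had 8.32 ± 0.13, EIF4H, another helicase partner, 8.51 ± 0.18, EIF4G2, a scaffold without the cap-binding part, 7.05 ± 0.22, and EIF4G3 3.89 ± 0.14.

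The 4E-binding proteins hold EIF4E away from the scaffold until mTORC1 phosphorylates them. EIF4EBP1 measured 7.56, 7.49, 7.98 and 7.62, a span of 1.41-fold. EIF4EBP2 measured 5.38, 5.42, 5.80 and 5.35, and replicate 3 stood apart by Dixon's ratio. Both were highest on replicate 3, and the other 3 arrays agreed to within 1.10-fold and 1.05-fold.

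EIF5B joins the large subunit to the small one, and EIF6 keeps unused large subunits apart. EIF5B measured 4.10, 4.18, 4.72 and 4.24, with replicate 3 highest. EIF6 was among the steadiest genes at 8.34 ± 0.08. EIF5A, which helps the ribosome through difficult peptide bonds, was as steady at 6.62 ± 0.08. Its paralog EIF5A2 measured 1.68, 1.76, 2.04 and 1.61, the wider span of that pair at 1.34-fold.

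In the eEF1 complex, EEF1A1 and EEF1A2 deliver aminoacyl-tRNAs, and EEF1B2 and EEF1D recharge them with GTP. EEF1A1 measured 9.91, 10.10, 9.31 and 9.72, with its lowest value on replicate 3 and a span of 1.74-fold. EEF1A2, from its only probe, was highest there, at 8.97, 8.93, 9.42 and 9.10. The direction of EEF1A1 on replicate 3 depends on the probe, as described below. Of the other subunits, EEF1B2 measured 10.43, 10.49, 10.76 and 10.48, with replicate 3 apart by Dixon's ratio. EEF1D and EEF1G were even, at 9.55 ± 0.06 and 11.42 ± 0.09. Near-identical copies of EEF1A1 and EIF4A1 exist elsewhere in the genome, so signal of their probes may be shared and is uncertain.

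EEF2 moves the ribosome by 1 codon at a time, and EEF2K, its kinase, shuts it off. EEF2 had the widest span of all 47 genes. Its levels were 10.60, 10.53, 9.54 and 10.41, so replicate 3 lay 2.07-fold below the highest array while the other 3 agreed to within 1.14-fold. EEF2K measured 3.06, 3.06, 3.62 and 2.99. Replicate 3 was its highest array and stood apart by Dixon's ratio, and without it the span was 1.05-fold. Each of the pair was read by a single probe. That of EEF2 starts at base 2422 of its RefSeq transcript and covers chr19:3976730-3977256 of hg19, minus strand, across a splice junction. It is shown because the list's widest span rests on it alone.
EEF2 probe at 2422: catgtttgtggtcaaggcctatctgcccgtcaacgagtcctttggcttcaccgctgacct

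**Figure D2:**
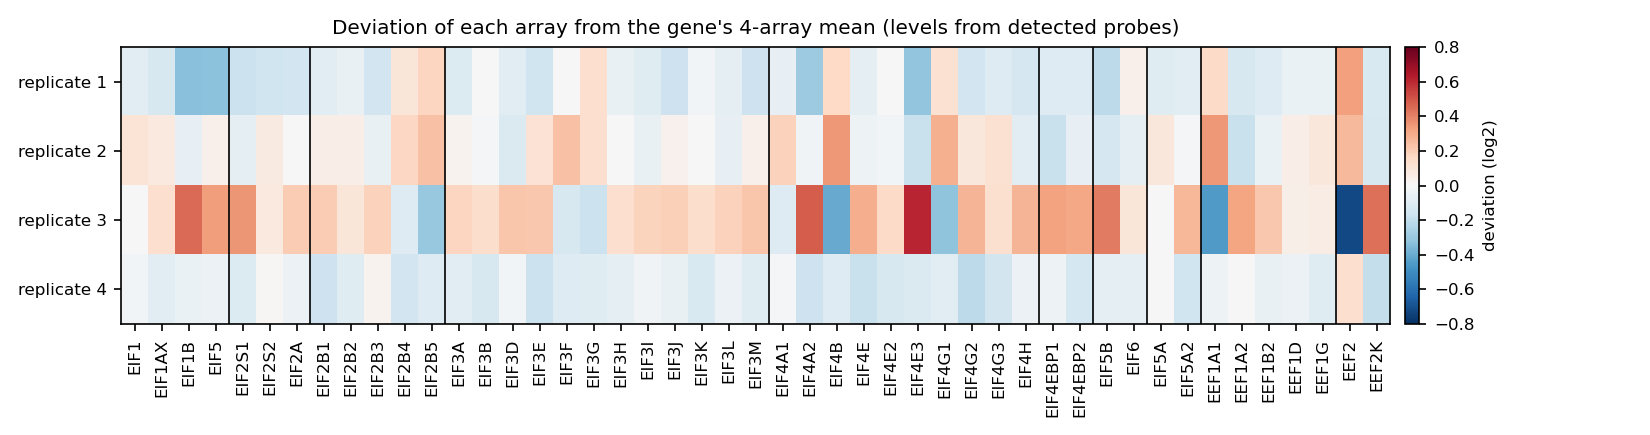
Deviation of each array (rows) from the gene's own 4-array mean (log2, colour scale) for the 47 genes (columns, ordered by complex and separated by black lines). The row of replicate 3 is mostly red, for the 34 genes in which it is the highest array, with the darker blue cells at EEF2, EEF1A1, EIF4B, EIF4G1 and EIF2B5.

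Over the whole list the median SD was 0.16, against 0.19 for the 19083 genes detected on the array. 14 of the 47 genes (29.8%) spanned more than 1.4-fold, the fold threshold of the study's methods, where 40.1% of all detected genes did. Of the 47, 28 lay among the brightest 10% of detected genes. In that 10% the share past 1.4-fold was 20.3% and the median SD 0.152, and in the next 10% they were 27.9% and 0.171. With all probes of a gene included, detected or not, 16 of the 47 (34.0%) passed 1.4-fold, beside 46.4% of all detected genes. 4 genes (8.51%) had an array apart by Dixon's ratio, EIF3L, EIF4EBP2, EEF1B2 and EEF2K, beside 7.17% of all detected genes. That share lies close to the background and to the 5% that chance gives. All 14 wide spans ended at replicate 3, which was the highest array in 9 of them and the lowest in 5. Over all 19083 detected genes, whatever their span, replicate 3 was already the highest array in 9493 and the lowest in 4459. The same count for only those past 1.4-fold is not given here. Without replicate 3 none of the 47 genes (0 of 47) spanned more than 1.4-fold, beside 14.5% of all detected genes, the largest span was 1.37-fold and the median SD was 0.094.

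Replicate 3 was the highest array for 34 of the 47 genes (72.3%), beside 49.7% of all detected genes. Signal strength moved with this share: among the brightest 10% of all detected genes, which held 28 of the 47, replicate 3 was highest in 76.1%, and in the next 10% in 68.3%. Its part in the result was not tested. The share also depends on the scaling. With background correction by normexp and quantile normalization, replicate 3 was the highest array for 17 of 47 genes (36.2%) and for 37.2% of all detected genes, so the excess was no longer seen.

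Complexes were compared by the mean, over their genes, of each array's deviation from the gene's own 4-array mean. For all 47 genes these means were -0.077, 0.035, 0.124 and -0.082 on replicates 1 to 4, and for all detected genes they were -0.009, 0.035, 0.065 and -0.091. The excursion on replicates 1 and 3 was larger for the list than for all detected genes. It was near that of the brightest 10% of detected genes, which had -0.065, -0.025, 0.153 and -0.063. The 4 genes of start codon selection had -0.219, 0.043, 0.230 and -0.053. On this scale it was the widest excursion of the 5 complexes with 4 or more detected genes. The eIF3 genes had -0.068, 0.028, 0.125 and -0.086, and the eIF4 genes had -0.086, 0.067, 0.138 and -0.120, both close to the list. In eIF2B the means were -0.008, 0.089, 0.017 and -0.098, so that replicate 2 and not replicate 3 was highest. The eEF1 genes had -0.038, 0.051, 0.037 and -0.050, the narrowest excursion on this scale, in which EEF1A1 and EEF1A2 offset each other on replicate 3. No difference between complexes was tested, since each rests on the same 4 arrays. After normexp and quantile normalization the mean of the 47 genes on replicate 3 was -0.037, the opposite sign, and the order of the complexes changed as well. The SD of the 4 means was then 0.093 in eEF1, 0.087 in eIF2B, 0.086 in start codon selection, 0.046 in eIF4 and 0.041 in eIF3, so eEF1 went from the narrowest to the widest.

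**Figure D3:**
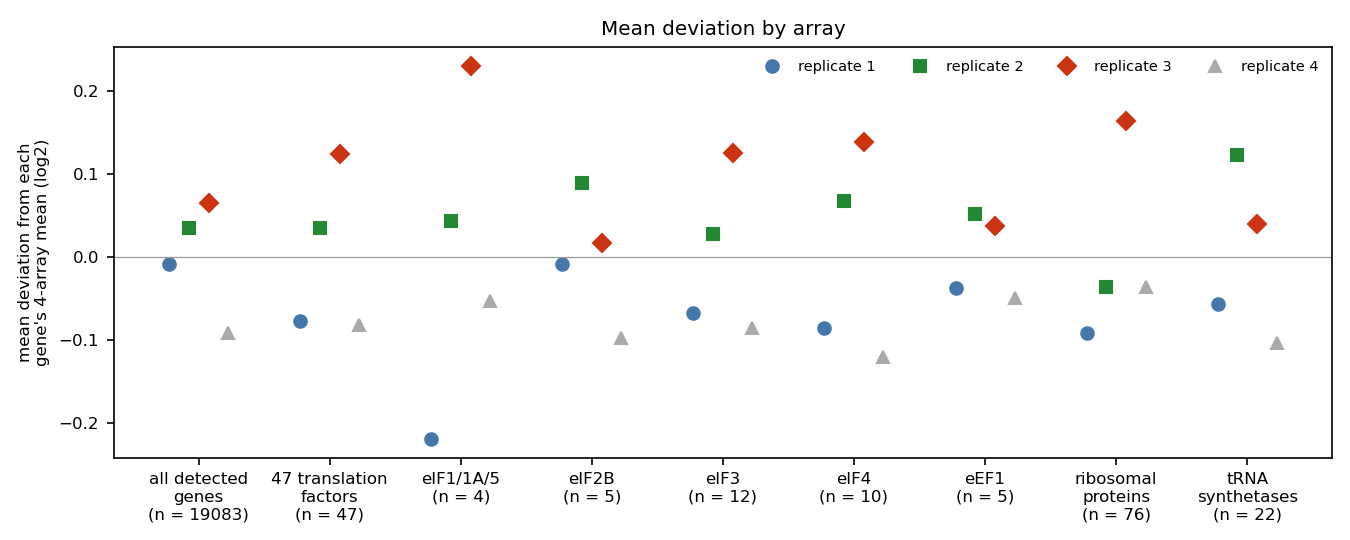
Mean over genes of the deviation of each array from the gene's 4-array mean (log2, vertical axis) for all detected genes, the 47 translation factors, the 5 complexes with at least 4 detected genes, ribosomal proteins and aminoacyl-tRNA synthetases; 1 point for each array, no error bars. Replicate 3 (diamonds) is highest for all detected genes, the list, start codon selection, eIF3, eIF4 and the ribosomal proteins, and replicate 2 (squares) for eIF2B, eEF1 and the synthetases.

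The choice of probes changed 5 genes by more than 1 on the log2 scale, EIF2A, EIF3A, EIF3E, EIF4E2 and EIF4G3. In the other 42 genes all probes were detected and both levels were the same. Over all detected genes 10.6% moved by more than 1, close to 5 of 47. EIF3A measured 9.80, 9.94, 10.08 and 9.82 from its detected probe but 2.49, 9.94, 10.08 and 2.34 from all probes. Its second probe had signals of 2.73, -3.36, -6.29 and 1.80 fluorescence units, well above background on 0 arrays. Signals at or below 0 have no logarithm, so this probe dropped out on replicates 2 and 3 and entered the median on replicates 1 and 4. The span of EIF3A was 214-fold from all probes and 1.21-fold from the detected one. The second probe is annotated to a transcript outside RefSeq, starting at its base 131, and lies at chr10:120819436-120819495 of hg19, minus strand. It is shown because the all-probe level of EIF3A turns on it.
EIF3A undetected probe: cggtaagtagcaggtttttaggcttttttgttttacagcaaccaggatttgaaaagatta

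EIF3E showed the same pattern on other arrays. Its levels were 2.58, 1.99, 10.09 and 9.70 from all probes and 9.71, 9.99, 10.09 and 9.70 from the detected one, since the second probe, with signals of 3.26, 1.09, -2.84 and -0.91, had a logarithm on replicates 1 and 2 alone. The all-probe span was 274-fold and the detected-probe span 1.31-fold. In EIF2A and EIF4E2 the undetected probe lowered all 4 arrays by similar amounts. EIF2A measured 1.403, 1.76, 1.73 and 1.57 from all probes, 3.30 below its detected-probe mean on average. EIF4E2 measured 5.59, 5.60, 5.70 and 5.43, lower by 1.02, which is just past the limit of 1. EIF4G3, with 1 of its 3 probes detected, measured 1.33, 1.36, 0.91 and 1.21, lower by 2.69 on average. Replicate 3 was its lowest array from all probes and its highest from the detected probe. A further probe was well above background on replicates 1, 2 and 4, with levels of 1.33, 1.36 and 1.21. Its spot on replicate 3 was marked as an outlier and left out, so the all-probe median on that array was taken over the other 2 probes.

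**Figure D4:**
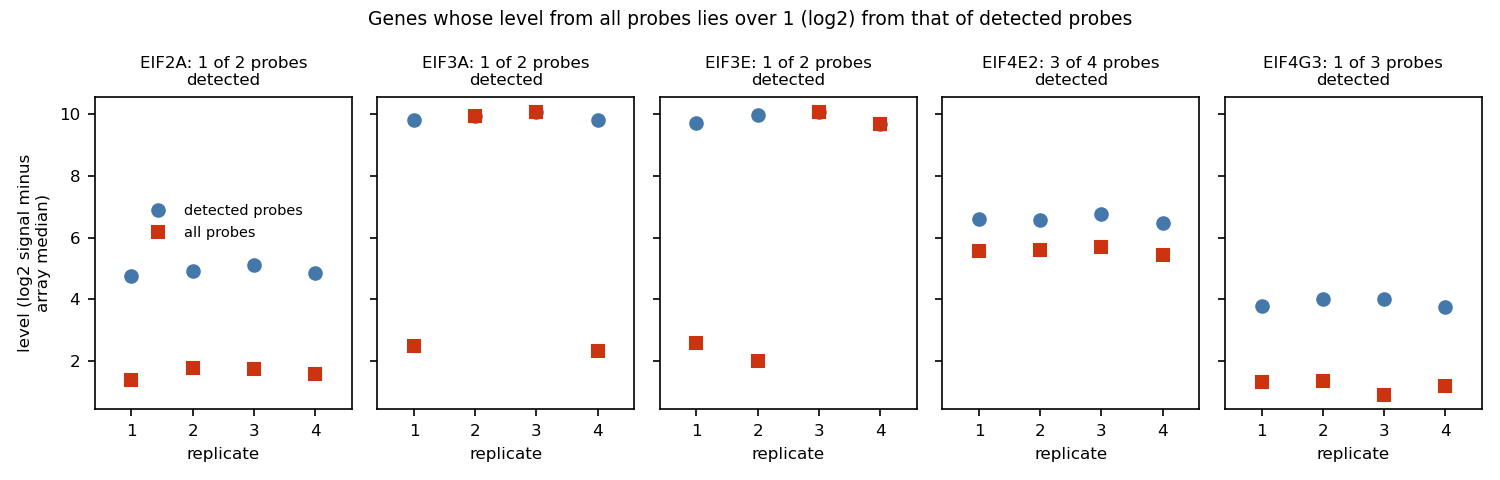
Levels of EIF2A, EIF3A, EIF3E, EIF4E2 and EIF4G3 (log2 signal minus array median, vertical axis) on the 4 replicates, from detected probes (circles) and from all probes (squares). In EIF3A and EIF3E the all-probe level falls to between 1.99 and 2.58 on 2 arrays each while the detected-probe level stays between 9.70 and 10.09.

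Detection alone did not settle every gene. EIF3D had 2 detected probes whose levels lay far apart, 9.43, 9.43, 9.61 and 9.50 for the RefSeq probe and -1.08, -1.13, -0.63 and -1.02 for a probe annotated outside RefSeq, so its level of 4.26 falls between them and describes neither. Both probes were highest on replicate 3. It was 1 of 10 genes, of 14 with more than 1 detected probe, whose detected probes differed in mean level by more than 2 on the log2 scale. Probes of a gene were therefore not set against each other in level, and only their deviations between arrays were compared.

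Such deviations differed between probes annotated to the same transcript in 3 genes. The 5 RefSeq probes of EEF1A1, encoding the tRNA-delivering factor, start at bases 173, 257, 556, 599 and 1226 of their transcript. On replicate 3 they deviated from their own 4-array means by -0.86, -0.74, -0.49, -0.31 and 0.04 in that order, so the probe farthest upstream was lowest and the one farthest downstream was level. The probe at 173 had signals of 62652, 65732, 25489 and 43620 fluorescence units on replicates 1 to 4, and the probe at 1226 had 377157, 369949, 371976 and 324995. A sixth probe, annotated outside RefSeq, deviated by 0.22. The probes lie on the minus strand of chromosome 6 (hg19), at chr6:74229214-74229639 across a splice junction, chr6:74229130-74229189, chr6:74228723-74228782, chr6:74228680-74228739 and chr6:74227794-74227853. They are shown from upstream to downstream because they are annotated to 1 transcript and differ on replicate 3. The probes were not compared with the sequence of that transcript. Near-identical copies of the gene exist, so some probes may not match it exactly. Whether this bears on the differences was not tested. Capitals mark the 17 bases that the probes at 556 and 599 share.
EEF1A1 probe at 173: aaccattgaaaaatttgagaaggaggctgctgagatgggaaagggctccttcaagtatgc
EEF1A1 probe at 257: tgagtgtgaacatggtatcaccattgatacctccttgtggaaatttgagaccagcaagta
EEF1A1 probe at 556: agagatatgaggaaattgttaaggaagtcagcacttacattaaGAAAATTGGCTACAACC
EEF1A1 probe at 599: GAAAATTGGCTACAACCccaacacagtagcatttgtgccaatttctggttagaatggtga
EEF1A1 probe at 1226: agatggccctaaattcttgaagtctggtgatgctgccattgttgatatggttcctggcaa

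EIF4A1, the helicase, had 4 detected probes, starting at bases 665, 1197, 1271 and 1298. Their deviations on replicate 3 were -0.70, -0.13, -0.02 and -0.07, and again the probe farthest upstream was the lowest. It had signals of 4256, 5340, 2128 and 2946. The probes lie on the plus strand of chromosome 17 (hg19), at chr17:7480389-7480448, chr17:7481548-7481704 across a splice junction, chr17:7481719-7481778 and chr17:7481746-7481805. Capitals mark the 33 bases in which the last 2 overlap. Within them the probes differ by C38T and C41T, counted from 1 at the 5′ end of the probe at 1271 and with its base first. The last 2 probes thus cannot both match 1 sequence, though their deviations on replicate 3 differed by little. The match of the 4 probes to the transcript was not checked.
EIF4A1 probe at 665: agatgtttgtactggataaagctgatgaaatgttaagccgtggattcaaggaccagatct
EIF4A1 probe at 1197: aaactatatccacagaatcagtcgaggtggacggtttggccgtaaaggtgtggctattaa
EIF4A1 probe at 1271: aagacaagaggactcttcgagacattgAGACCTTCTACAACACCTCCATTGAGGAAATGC
EIF4A1 probe at 1298: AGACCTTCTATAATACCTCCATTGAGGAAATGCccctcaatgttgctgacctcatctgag

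EIF4B, which stimulates that helicase, had probes at bases 1193, 2084 and 3330, with deviations on replicate 3 of -0.40, 0.15 and 0.27. Its level, the median of the 3, was that of the probe at 1193 on all 4 arrays, which put replicate 3 lowest, while both downstream probes were highest on replicate 3. The probe at 2084 had levels of 8.42, 8.44, 8.63 and 8.44, and the one at 3330 had 4.08, 4.50, 4.65 and 4.32. The direction given for EIF4B on replicate 3 therefore depends on the probe. The upstream probe lies at chr12:53427598-53427657 of hg19, plus strand.
EIF4B probe at 1193: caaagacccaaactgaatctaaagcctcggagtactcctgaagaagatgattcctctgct

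**Figure D5:**
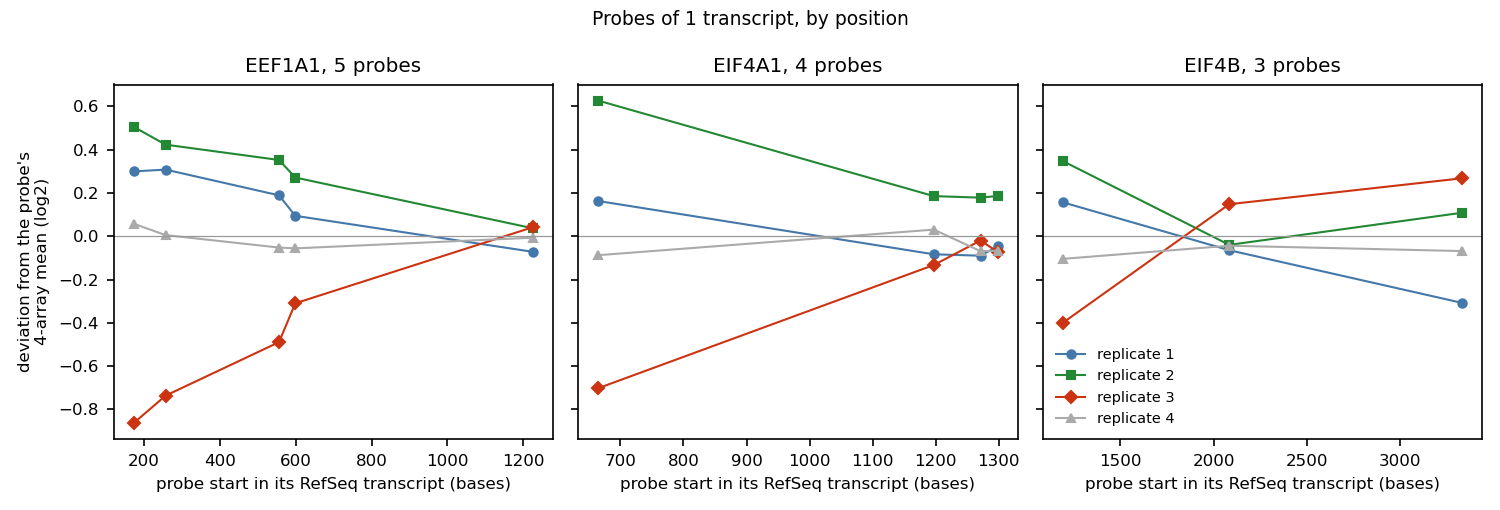
Deviation of each RefSeq probe from its own 4-array mean (log2, vertical axis) against its start in the transcript in bases, for EEF1A1, EIF4A1 and EIF4B, with 1 line for each array. Replicate 3 (diamonds) rises from -0.86 to 0.04 along EEF1A1, from -0.70 to -0.07 along EIF4A1 and from -0.40 to 0.27 along EIF4B. Replicates 1 and 2 run the other way, which deviations from a shared mean partly impose.

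The pattern was then looked for over the array, after these values had been seen. For each RefSeq transcript with detected probes at least 60 bases apart, the deviation of the most upstream probe was set against that of the most downstream one. On replicate 3 the upstream probe deviated lower in 76.3% of 2668 transcripts, with a median difference of -0.21. On replicates 1 and 2 it did so in 29.2% and 29.8%, with median differences of 0.10 and 0.11, and on replicate 4 in 49.1%. Deviations are taken from each probe's own 4-array mean, so a low value on replicate 3 forces higher ones elsewhere. Part of the opposite sign on replicates 1 and 2 is therefore imposed. The centring does not set how the rise is shared among the other arrays, and replicate 4 had a median difference of only 0.002. Replicate 4 thus differed from replicates 1 and 2 as well. Distance moved with the share on replicate 3, which was 65.9% for probes under 300 bases apart and 76.6% to 78.8% at longer distances. In the 1012 transcripts whose probes differed by at most 2 in their count of G and C, it was 74.0%. After normexp and quantile normalization it was 73.8%.

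Among the translation factors 11 genes gave such a pair, and the upstream probe deviated lower on replicate 3 in 9 of them, a share close to that of the array. EEF1A1 differed by -0.91, EIF4B by -0.67 and EIF4A1 by -0.63. The next were EIF1AX at -0.16, EIF4E at -0.11 and EIF2B3 at -0.08. EIF4EBP2, EIF4E2 and EIF4H differed by -0.06, -0.03 and -0.01, and EIF2S2 and EIF3J by 0.07 and 0.08. The 3 large differences thus stood apart from 8 that were small on the same array. Probes across a splice junction, which cannot lie wholly in the last exon, showed the same tendency. Replicate 3 was the highest array for 4 of 14 such RefSeq probes of the translation factors and for 42 of 54 probes within 1 exon, and over the array for 39.4% of 1692 and 57.0% of 17618. EEF2, EIF2B5, EIF4G1 and EIF3F, each lowest on replicate 3, have a junction probe as their only one. The genes did not all follow: EIF3K, EIF3L, EIF2A and EIF3E were highest on replicate 3 from a junction probe, and EIF3G was lowest from a probe within 1 exon. RNA integrity and the length of the labelled product are not among the values used here, and their part in these differences was not tested.

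The starts of the transcripts were read next. mRNAs of the translation machinery often begin with a C followed by an unbroken run of C and T, the terminal oligopyrimidine or TOP motif, through which mTORC1 regulates their translation. In the RefSeq table of starts (GRCh38.p14), 39 of the 48 genes had an entry. A start was counted when its first base was C and at least 5 bases from there on were C or T, on the transcribed strand alone. 11 of the 39 genes (28.2%) had such a start, against 5.14% of the 27305 genes of the table and 47 of 63 ribosomal protein genes (74.6%). By complex they were 4 of 7 eIF3 genes, the eIF2 subunit EIF2S3 and the separate factor EIF2A, 2 of 3 genes of eEF1, 2 of 10 of the eIF4 group and EEF2, and none of the 5 eIF2B genes (0 of 5) or the 4 of start codon selection (0 of 4). The genes are EEF1A1, EEF1B2, EEF2, EIF2A, EIF3D, EIF3F, EIF3K, EIF3M, EIF4A2, EIF4B and EIF2S3. The starts of the 4 that were lowest on replicate 3 (EEF1A1, EEF2, EIF4B and EIF3F) and, beside them, of EEF1B2 and EIF4A2, which were highest there, are shown, 10 bases before the start and 15 from it on, with the run in capitals. EEF1A1 and EEF2 lie on the minus strand and the others on the plus strand. The run of EEF1B2 is 16 bases long and extends past the 15 shown.
EEF1A1 start: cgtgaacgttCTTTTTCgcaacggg
EEF2 start: cgtcagcgttCTCTTCCgccgtcgt
EIF4B start: tcatccgggtCTTTTgcgttctctt
EIF3F start: cttccgcctcCTTCTTTCTCgacaa
EEF1B2 start: ctcttcgggtCCTTTTTCCTCTCTT
EIF4A2 start: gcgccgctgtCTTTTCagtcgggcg

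A match is a description of letters and does not show that a transcript starts there in these cells. The 10 array-measured genes with the motif had a median SD of 0.17 and the 28 without it 0.16. Replicate 3 was the highest array for 6 of the 10 and for 21 of the 28, and the lowest for 4 and 3. The mean deviation on replicate 3 was -0.022 with the motif and 0.170 without it, and EEF2, EEF1A1 and EIF4B, at -0.72, -0.45 and -0.40, carried the former. These 3 have the junction or upstream probes described above. Among the ribosomal proteins, of which most carry the motif, replicate 3 was the highest array for 69 of 76 (90.8%) and the lowest for 2. Neither the part of the motif nor that of probe position in these values was tested.

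Of the 9 pairs of paralogs on the list, both members were detected on all 4 arrays in each. The detection call was thus passed by the less usual forms EIF1B, EIF4E3, EIF4G3, EIF5A2 and EEF1A2, the last known mainly from muscle and nerve. The call is lenient: the blood cell genes PTPRC and CD3E passed it on all 4 arrays too, at levels between -0.48 and 0.73. The levels of EIF4E3, -0.28 to 0.64, fell within that range, so its detection does not show that HCT116 makes it. In EIF1 and EIF1B the spans were 1.15-fold and 1.73-fold, and in EIF5A and EIF5A2 1.14-fold and 1.34-fold. In EIF4A1 and EIF4A2, and in EEF1A1 and EEF1A2, replicate 3 was the lowest array for the first and the highest for the second, by gene level. For EIF4A1 the margin was small, at 8.22 against 8.26 on replicate 1. For EEF1A1 the direction depends on the probe, since replicate 3 was highest for the probe at 1226 and for the one outside RefSeq.

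Genes that work beside these factors, here and in the next paragraph, were nearly all detected as well, beside 52.5% of all gene names. Of 22 other initiation factors and cap or poly(A) partners, 20 were found by name and 19 detected. Their median SD was 0.20, and 8 (42.1%) spanned more than 1.4-fold, close to the 40.1% of all detected genes. EIF4E1B, an oocyte form of the cap-binding protein, was well above background on 0 arrays, and EIF3CL and EIF4EBP3 were not analysed here. Of 12 other elongation and termination factors 10 were detected, 5 of which passed 1.4-fold, and their median SD was 0.23. GSPT2, a release factor form, was well above background on 1 array, and DPH1 was not analysed here. The 6 eIF2 kinases and phosphatase subunits included 5 detected genes, of which 2 (40.0%) spanned more than 1.4-fold. The sixth, EIF2AK3, was well above background on 3 arrays, and its spot on the remaining array was left out as an outlier.

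All 9 mitochondrial translation factors were detected. Their median SD was 0.14, and 0 of them passed 1.4-fold. Cytosolic ribosomal proteins were detected in 76 of 79 cases. RPL12, RPL35A and RPS3 each lost 1 array to an outlier mark and were well above background on the other 3. Their list had a median SD of 0.13 and 2 of 76 past 1.4-fold. The 22 cytosolic aminoacyl-tRNA synthetases were all detected, 6 of them passed 1.4-fold, their median SD was 0.18, and replicate 3 was highest in 13. The median SD of the translation factors, 0.16, lay between those of ribosomal proteins and synthetases, while their share past 1.4-fold, 29.8%, lay above both (2.63% and 27.3%). None of these differences was tested.

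The label of the cells was set against marker genes. Of 8 genes of colon epithelial lines, 6 were detected (EPCAM, KRT8, KRT18, KRT19, CDH1 and CLDN4), while VIL1 and CEACAM5 were well above background on 0 arrays. Of 9 markers of other cell types 4 were detected, PTPRC, CD3E, CDH5 and COL1A1, with levels between -0.48 and 3.26. Over all gene names 52.5% were detected, so 4 of 9 lay near that share. With genes of blood and endothelium among those detected, the call says little about the kind of cell. PECAM1, COL3A1 and ALB were well above background on 0 arrays, and DCN and GFAP on 1. A part of other cells in the translation factor values was not tested.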

How the data were processed

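The authors deposited 1 scanner file per array, with intensity values on a linear scale written by Agilent Feature Extraction 10.7.3.1 (version per the submitters' processing notes), background-subtracted and not normalized between arrays. Deposited flags mark spots well above background, saturated or outlying. Probe coordinates are those of hg19. RNA (100 ng) was labelled with Cy3. The 4 arrays share 1 slide and scan, which could thus not be tested as batches. The number of arrays limits the precision.

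Control spots and spots marked as outliers (feature or local background) were dropped, and replicate spots of each probe averaged. The signal was log2 transformed and the array median over non-control probes subtracted. Signals at or below 0 were left out. A gene's level is the median over its probes. Detection of a probe on an array required that over 50% of its spots lay well above background. Dixon's ratio was used at its 95% critical value for 4 values. These statistics were tested on simulated data. No test between groups was possible with 1 condition.

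The members, gene lists and rules were chosen with earlier results of these data known. All 48 members are named. Values on each array are given for those that span most in their complex, have 1 array apart, change with the probe choice or are not detected. Other genes are named where not detected, up to 5 a list. 1 marker gene is not reported here. The probe-position, junction and start-motif comparisons, and per-array values of other members, were added after values were seen.

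Alternatives were only probes well above background, only probes valued on every array, the 75th percentile of the processed signal as centre, normexp (offset 50) with quantile normalization in limma 3.58.1, centring on the median over all probes, outlier spots kept, only feature outliers left out (added later), other detection rules, medians over arrays and each array left out. Python 3.11.15, numpy 2.4.6, pandas 2.3.3 and R 4.3.3 were used. Gene starts come from RefSeq (GRCh38.p14).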

Additional observations from a re-analysis of the deposited data

Results flagged for a closer look

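In 4 genes Dixon's ratio marked 1 array as apart, each time as a high value on replicate 3 and with the same value from all probes and from detected probes. EIF3L, a peripheral subunit of eIF3, had a level of 8.42 there, EIF4EBP2 had 5.80, EEF1B2 had 10.76 and EEF2K had 3.62. With 47 genes checked, chance marks about 5% of them, and the background over all detected genes is 7.17%. EEF2, with 9.54 on replicate 3, stayed just under the critical value.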

How the results depend on the processing

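All 47 genes stayed detected under the other detection rules and without each array, except that requiring every probe of a gene to be well above background left 42. The SD between arrays of the mean over the list, from all probes, was 0.208. It was 0.0989 with only probes well above background, 0.0947 with only probes valued on every array, 0.0394 with the processed signal, the 75th percentile as its centre, and 0.0283 after normexp and quantile normalization. Centring on the median over all probes raised it to 0.256. Without 1 array it was 0.126 to 0.254, lowest without replicate 3. For complex means the SD between arrays was 0.188 in start codon selection (0.131 with the processed signal, 0.0857 after normexp, 0.241 when centred on all probes and 0.133 to 0.227 without 1 array), 0.0974 in eIF3 (0.0498, 0.0407, 0.135 and 0.0613 to 0.117), 0.123 in eIF4 (0.0526, 0.0462, 0.144 and 0.0957 to 0.140) and 0.0516 in eEF1 (0.0274, 0.0934, 0.0985 and 0.0474 to 0.0554). In eIF2B it was 0.0775, 0.0464 with the processed signal, 0.0869 after normexp and 0.0507 to 0.0946 without 1 array. The median SD of the members from all probes, 0.167, was 0.111 after normexp and quantile normalization, 0.210 when centred on all probes and 0.0964 to 0.197 without 1 array. The count of members past 1.4-fold, 16, was 10 after normexp, 21 when centred on all probes and 2 to 16 without 1 array, 2 without replicate 3 (EIF3A and EIF3E). The 4 members with 1 array apart were 2 after normexp, 2 when centred on all probes and 6 with the processed signal. The causes of these shifts were not tested. With only probes well above background, the mean levels of EIF2A, EIF3A, EIF3E, EIF4E2 and EIF4G3 rose by 3.30, 3.70, 3.78, 1.02 and 2.69. The SDs of EIF3A and EIF3E from all probes, 4.38 and 4.40, hold the dropped probe and cannot serve as a yardstick. Levels of the other members moved by less than their SD when outlier spots were kept or any array was left out. No paired analysis was possible because only 1 group of samples was analysed.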
